A study of Homo sapiens with 9 samples.

Results

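The genes of cytosolic DNA sensing by cGAS and STING were examined in MOLM13 cells, a human acute myeloid leukemia line of monocytic type, after knockdown of DDX41. The 8 genes were chosen by symbol from the 30017 genes listed in the count table, and they are MB21D1 (the older symbol of CGAS), IFI16, TMEM173 (the older symbol of STING1), MAVS, TBK1, IRF3, TREX1 and SAMHD1. All 8 had enough counts to be tested, among 12712 tested genes. The choice used no measured value, but it was made with earlier results of these data known. Cells carried a lentiviral pLKO-GFP vector with a control short hairpin RNA (sh-Control) or 1 of 2 hairpins against DDX41 (shDDX41 #1 and shDDX41 #2), so the controls were also transduced. GFP+ cells were sorted on day 4 after transduction. Each group had 3 libraries, A, B and D, all from a single line, and the sources used here do not say what the letters stand for. The study's methods describe its quantified assays in general as biological replicates, without naming these libraries, so the p-values measure the spread between the libraries, which may in part be technical.

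In the textbook pathway, cGAS binds double-stranded DNA in the cytosol and makes the cyclic dinucleotide cGAMP. cGAMP binds STING on the endoplasmic reticulum, STING moves to the Golgi and recruits the kinase TBK1, and TBK1 phosphorylates IRF3, a transcription factor that turns on type I interferon genes. DDX41 has been described as a further DNA sensor that acts upstream of STING, and innate immune signaling was 1 of the themes followed in the study. Enzymes such as TREX1 and SAMHD1 keep the cell's own nucleic acids from building up, and loss of either gives a hereditary interferon disease. RNA-seq measures the mRNA of these genes and not their protein, phosphorylation or activity.

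Depth was similar in all groups, from 16385238 to 20510032 counts per library. DDX41 was at 117, 115 and 113 CPM (the count over the scaled library total) in libraries A, B and D of sh-Control, at 12.2, 12.9 and 9.95 CPM with shDDX41 #1 and at 38.9, 39.9 and 42.5 CPM with shDDX41 #2, so the label of each library went with the level of its target. Library D of shDDX41 #1 stood farthest from its partners (chi-square per degree of freedom 17.7 and 19.2, against 2.91 between A and B), and without it the number of members called was the same in each comparison, at 3, 2 and 5. Of 10 markers listed for a monocytic leukemia line, CD14 alone had a mean under 1 CPM. The summed level of the list was 2108 to 2158 in sh-Control, 2150 to 2206 with shDDX41 #1 and 3046 to 3085 CPM with shDDX41 #2. The largest part of this sum was LYZ, at 877 to 987, 838 to 915 and 1795 to 1833 CPM in the same order, while CSF1R was at 21.1 to 23.5, 9.83 to 13.8 and 17.2 to 20.2 CPM. The part of these differences in the results was not tested. The erythroid markers HBB, HBA1 and HBA2 had no count in any library, and neither had MS4A1 of the B cell list, KRT19 of the epithelial list or COL1A2 of the fibroblast list. The B cell list summed to 0.421 to 1.26 CPM over the libraries, the epithelial list to 14.7 to 19.4 CPM and the fibroblast list to 0 to 0.688 CPM. The T cell list summed to 240 to 268 in sh-Control, 291 to 307 with shDDX41 #1 and 244 to 252 CPM with shDDX41 #2, nearly all of it CD4, which monocytic cells also express, with CD3D at 0.239 to 2.06 CPM. In bulk RNA, a lower level in every cell and fewer cells with the mRNA cannot be told apart.

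To relate the members to each other, levels were divided by the length of the merged exons, because CPM alone favors long mRNAs. TMEM173 was the most abundant member per kilobase in sh-Control, at 57 ± 3.07 CPM per kb (SD, n = 3), followed by IRF3 at 29.4 ± 2.74. TBK1 (14 ± 0.662) and MB21D1 (13.8 ± 0.567) overlapped and could not be ordered. SAMHD1 (10.7 ± 0.696), MAVS (9.76 ± 0.303) and TREX1 (9.04 ± 1.32) also overlapped with their neighbors in this order. IFI16 was the lowest at 1.18 ± 0.131 CPM per kb. The order of these levels differed between groups mainly in SAMHD1, which followed TMEM173 with shDDX41 #1 at 24.8 ± 1.12 CPM per kb, overlapping IRF3 at 21.8 ± 2.75, and behind TMEM173 and IRF3 with shDDX41 #2 at 17.2 ± 1.23. mRNA of every member was detected in all 9 libraries, from sensor to transcription factor, with IFI16 as the one of fewest counts.

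**Figure D1:**
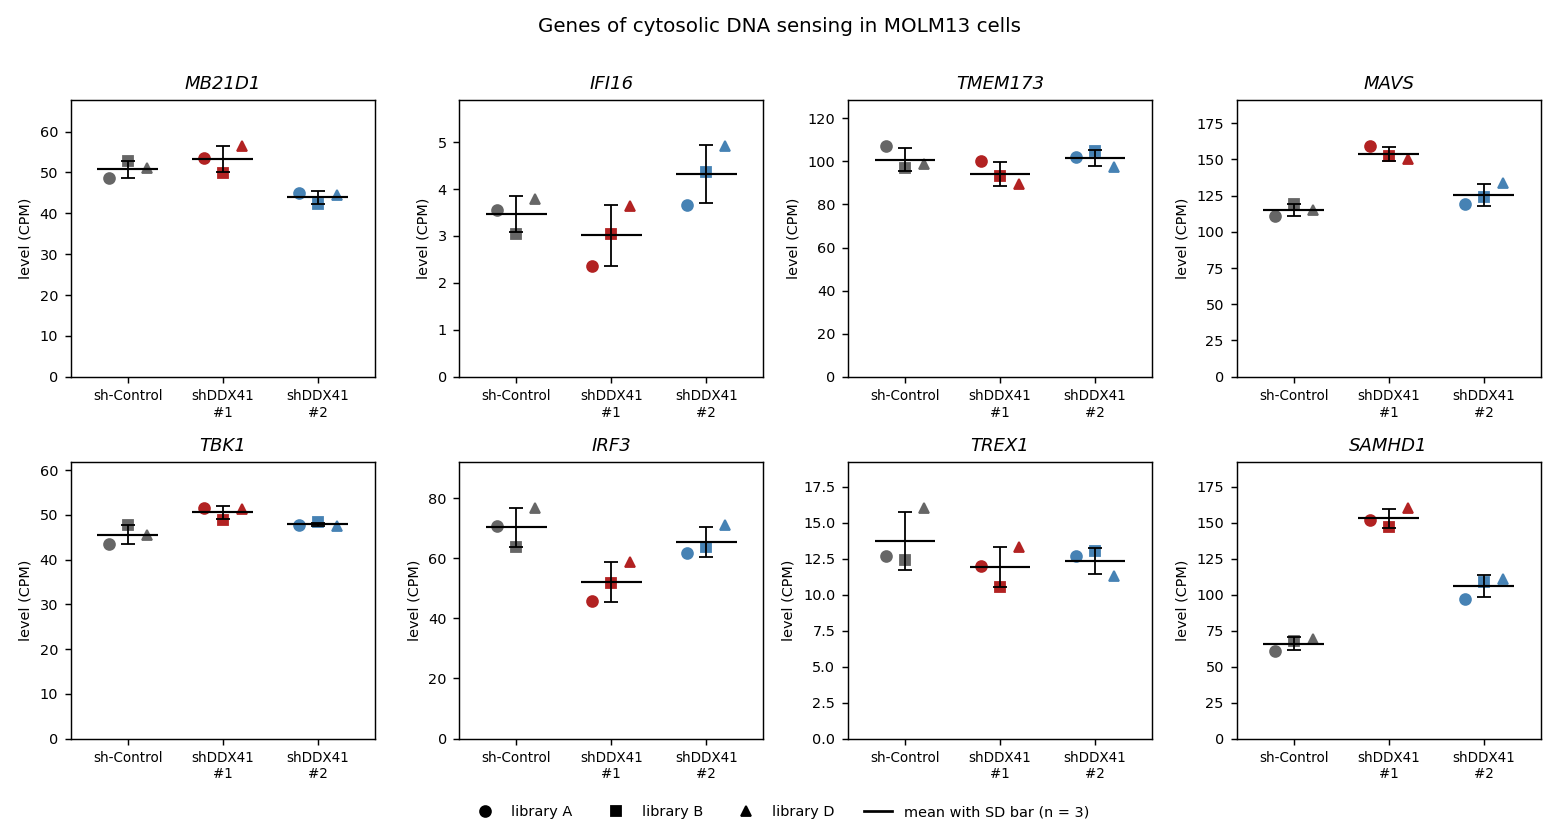
Level of each of the 8 genes in CPM (y axis, linear from 0) in the 3 groups (x axis). Points are libraries (circle A, square B, triangle D), the line is the mean and the bar the SD of 3 libraries. SAMHD1 separates all 3 groups, with means of 65.9 (sh-Control), 106 (shDDX41 #2) and 153 CPM (shDDX41 #1), while the TMEM173 groups overlap.

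Of the members listed as nucleic acid removing enzymes, SAMHD1 rose with both hairpins. SAMHD1 is a dNTP triphosphohydrolase that lowers the nucleotide pool and limits retroviruses in myeloid cells, and it lies on chromosome 20 (GRCh38, chr20:36889773-36951901, minus strand). It was at 61, 67.5 and 69.1 CPM in sh-Control, at 97, 109 and 111 CPM with shDDX41 #2 and at 152, 147 and 160 CPM with shDDX41 #1. All libraries of each group lay apart from those of the other groups, in the order of the loss of DDX41 mRNA. The log2 fold change against sh-Control was 1.22 (SE 0.0743, 2.32-fold, adjusted p 1.24e-08 by edgeR) with shDDX41 #1 and 0.68 (SE 0.0742, 1.6-fold, adjusted p 1.44e-05) with shDDX41 #2. The hairpins themselves differed by 0.53 (SE 0.0727, adjusted p 2.72e-05). SAMHD1 shares 1159 exon bases, 18.8% of its exons, with TLDC2 on the opposite strand, and TLDC2 had no count in any library.

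TREX1, the main exonuclease that degrades DNA in the cytosol, was not called in any comparison. It was at 12.7, 12.4 and 16 CPM in sh-Control, at 12, 10.5 and 13.3 CPM with shDDX41 #1 and at 12.7, 13 and 11.3 CPM with shDDX41 #2, and the groups overlapped. The log2 difference from sh-Control was −0.20 (95% confidence interval −0.474 to 0.072, adjusted p 0.211) with shDDX41 #1 and −0.15 (−0.418 to 0.121, adjusted p 0.423) with shDDX41 #2. All TREX1 exons (chr3:48465811-48467645, plus strand) lie inside ATRIP exons on the same strand, so reads of the 2 genes could not be fully separated, and the TREX1 level is uncertain. ATRIP, which binds the checkpoint kinase ATR, was lower with shDDX41 #1 (log2 fold change −0.46, SE 0.122, adjusted p 0.00593).

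The promoters of SAMHD1 and MAVS are shown because these were the only members that rose with shDDX41 #1, and each is a RefSeq window of 300 bases (GRCh38.p14) from 250 bases before the transcription start to 50 bases after it. They stand for SAMHD1 at chr20:36951659-36951958 on the minus strand and for MAVS at chr20:3846584-3846883 on the plus strand, written 5′ to 3′, with capitals for each match to GCGC, any 2 bases, GCGC.
SAMHD1: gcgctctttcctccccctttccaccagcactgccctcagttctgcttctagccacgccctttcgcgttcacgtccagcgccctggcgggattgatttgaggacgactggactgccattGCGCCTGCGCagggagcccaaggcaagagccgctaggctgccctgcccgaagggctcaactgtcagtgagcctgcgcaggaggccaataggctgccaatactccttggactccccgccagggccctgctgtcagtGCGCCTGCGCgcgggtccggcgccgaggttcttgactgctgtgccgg
MAVS: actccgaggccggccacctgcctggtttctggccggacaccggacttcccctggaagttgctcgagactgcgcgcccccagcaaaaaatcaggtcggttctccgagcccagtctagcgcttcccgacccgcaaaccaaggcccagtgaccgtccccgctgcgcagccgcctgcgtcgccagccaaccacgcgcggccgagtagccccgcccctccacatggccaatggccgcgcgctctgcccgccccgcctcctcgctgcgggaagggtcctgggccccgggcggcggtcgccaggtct

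Both windows are rich in G and C. The SAMHD1 window held 2 matches to the paired GCGC pattern, at positions 119 and 254 of the window, and the MAVS window held 0. This pattern, the form of the motif known for the factor NRF1, was picked after reading the SAMHD1 sequence, reads the same on both strands, and occurs at least once in 8.32% and at least 2 times in 1.7% of 35116 RefSeq promoters. Of the other members with a window, TBK1 held 1 match (position 183) and IFI16 and TREX1 held 0. The core of the interferon-stimulated response element (GAAA, any 2 bases, GAAA, searched on both strands) was in 0 of the 6 windows of the 5 members that had an entry, and in 3.57% of all promoters. TMEM173, MB21D1 and IRF3 were not matched to a window.

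Of the adaptors, TMEM173 was not called in any comparison. TMEM173 encodes STING (chr5:139475534-139482935, minus strand) and was at 107, 97 and 98.6 CPM in sh-Control, at 100, 93 and 89.4 CPM with shDDX41 #1 and at 102, 105 and 97.5 CPM with shDDX41 #2. The groups overlapped in each comparison. The log2 difference from sh-Control was −0.10 (SE 0.0678, 95% confidence interval −0.245 to 0.044, adjusted p 0.236) with shDDX41 #1 and 0.00 (SE 0.0675, −0.140 to 0.148, adjusted p 0.973) with shDDX41 #2. These intervals leave room for a level from 0.844-fold to 1.03-fold of the control with shDDX41 #1, and from 0.908-fold to 1.11-fold with shDDX41 #2.

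MAVS, the mitochondrial adaptor of the RNA sensors RIG-I and MDA5, rose with shDDX41 #1. MAVS (chr20:3846799-3876123, plus strand) was at 111, 119 and 115 CPM in sh-Control, at 159, 152 and 150 CPM with shDDX41 #1 and at 119, 124 and 134 CPM with shDDX41 #2. The shDDX41 #1 libraries were all above the other 6, and those of shDDX41 #2 were all above sh-Control, library A only narrowly (119 CPM, as sh-Control B, when rounded). The log2 fold change was 0.42 (SE 0.0643, 1.34-fold, adjusted p 8.48e-05) with shDDX41 #1, and the log2 difference was 0.13 (SE 0.0643, adjusted p 0.164) with shDDX41 #2. The difference between the hairpins was 0.29 (SE 0.0641, adjusted p 0.00152).

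The members listed as DNA sensors, MB21D1 and IFI16, each differed between the hairpins in edgeR. MB21D1, which encodes cGAS (chr6:73413515-73452276, minus strand), was at 48.6, 52.7 and 51.2 CPM in sh-Control, at 53.6, 49.9 and 56.4 CPM with shDDX41 #1 and at 45, 42.2 and 44.5 CPM with shDDX41 #2. The shDDX41 #2 libraries were the lowest of the 9, and those of shDDX41 #1 overlapped sh-Control. Its log2 fold change was −0.21 (SE 0.0702, 0.864-fold, adjusted p 0.0386) with shDDX41 #2. With shDDX41 #1 the log2 difference was 0.07 (SE 0.0699, adjusted p 0.441), and the hairpins differed by 0.28 (SE 0.0704, adjusted p 0.00413). The call against sh-Control was lost when any of 6 libraries was left out (sh-Control B or D, shDDX41 #1 A, or any of shDDX41 #2), with adjusted p from 0.0556 to 0.146. It was also lost with the DESeq2 Wald test (adjusted p 0.0548), and with upper quartile scaling or no filter on low counts (adjusted p up to 0.0781). MB21D1 shares 180 exon bases with DDX43 on the opposite strand, which had no count.

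IFI16, a nuclear and cytosolic DNA sensor (chr1:158999968-159055155, plus strand), had 39 to 88 counts per library. It was at 3.55, 3.04 and 3.79 CPM in sh-Control, at 2.35, 3.05 and 3.64 CPM with shDDX41 #1 and at 3.67, 4.36 and 4.91 CPM with shDDX41 #2. The libraries of both hairpins overlapped sh-Control but not each other, with 3.64 CPM as the highest of shDDX41 #1 and 3.67 CPM as the lowest of shDDX41 #2. The log2 difference was −0.20 (SE 0.2, adjusted p 0.426) with shDDX41 #1 and 0.31 (SE 0.188, adjusted p 0.246) with shDDX41 #2, and shDDX41 #1 was lower than shDDX41 #2 by a log2 fold change of −0.51 (SE 0.194, adjusted p 0.0397). That call was lost when shDDX41 #1 A or B or shDDX41 #2 B or D was left out (adjusted p 0.0725 to 0.16). It was also lost in the DESeq2 Wald test (adjusted p 0.0533) and with upper quartile scaling (adjusted p 0.058).

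IRF3 fell with shDDX41 #1, and its kinase TBK1 was not called. IRF3 (chr19:49659569-49665875, minus strand) was at 70.7, 63.6 and 76.7 CPM in sh-Control, at 45.7, 51.7 and 58.9 CPM with shDDX41 #1 and at 61.8, 63.7 and 71.2 CPM with shDDX41 #2. The shDDX41 #1 libraries were below the other 6, which overlapped. The log2 fold change was −0.43 (SE 0.0952, 0.741-fold, adjusted p 0.00166) with shDDX41 #1, the log2 difference was −0.10 (SE 0.0938, adjusted p 0.453) with shDDX41 #2, and the hairpins differed by −0.33 (SE 0.0954, adjusted p 0.0101). The last call was lost without shDDX41 #1 A (adjusted p 0.052) or shDDX41 #2 D (adjusted p 0.0579). IRF3 shares 482 exon bases, 20.1% of its exons, with BCL2L12 on the opposite strand, and BCL2L12 was also lower with shDDX41 #1 (36.1 ± 2.11 against 50.7 ± 0.631 CPM, log2 fold change −0.49, adjusted p 5.13e-05). The sources differ on whether the library kit kept the strand, and the part of the shared bases in the IRF3 value was not tested.

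TBK1 (chr12:64451880-64502108, plus strand) was at 43.5, 47.8 and 45.4 CPM in sh-Control, at 51.5, 48.9 and 51.4 CPM with shDDX41 #1 and at 47.8, 48.3 and 47.6 CPM with shDDX41 #2. The shDDX41 #1 libraries were above all others, yet the log2 difference of 0.15 (SE 0.0658, 95% confidence interval 0.010 to 0.291) did not pass after adjustment (adjusted p 0.0713). With upper quartile scaling, which moved the median of all tested genes from 0.012 to 0.087, the TBK1 value was 0.23 and passed (adjusted p 0.00942). With shDDX41 #2 the log2 difference was 0.07 (SE 0.0657, adjusted p 0.459). TBK1 shares 308 exon bases, 9.46% of its exons, with an antisense gene that is not a row of the table.

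**Figure D2:**
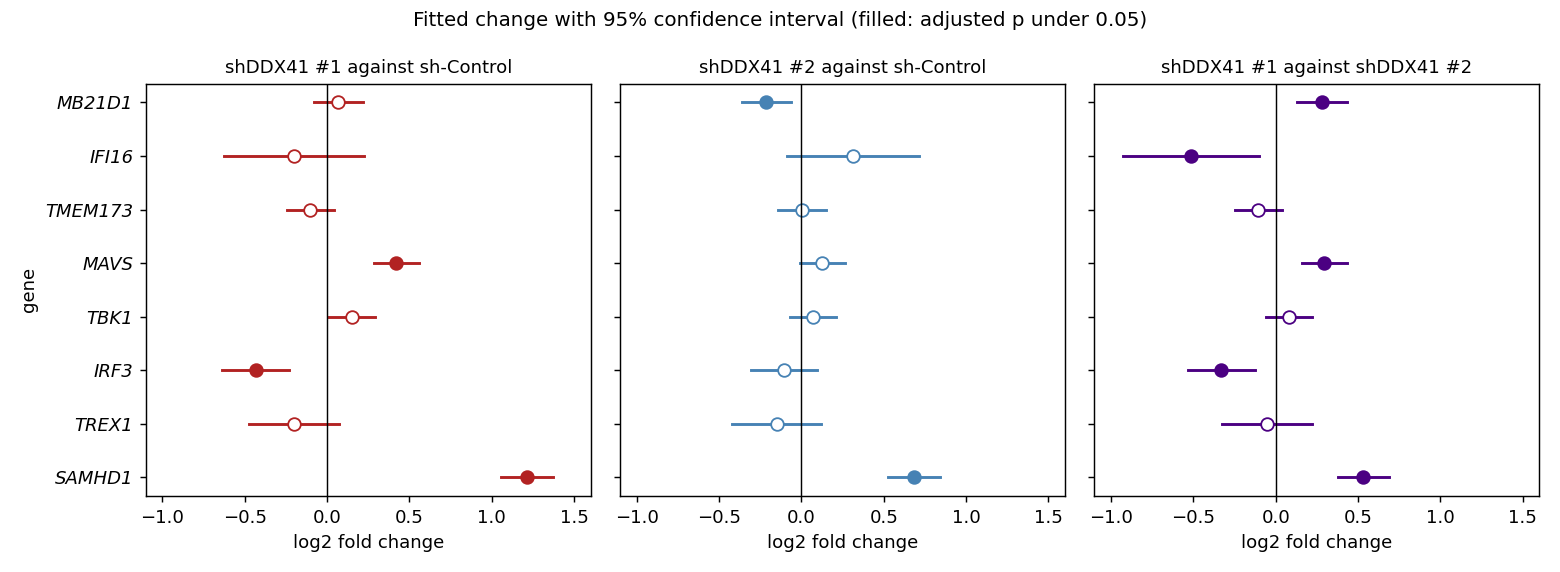
Log2 fold change (x axis) of the 8 genes (y axis) in the 3 comparisons, with the 95% confidence interval as a line. Filled points passed an adjusted p of 0.05. SAMHD1 is the only gene filled in all 3 panels, at 1.22, 0.68 and 0.53.

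Counts over the 8 members were read against all tested genes. With shDDX41 #1 against sh-Control, 3 of 8 were called (37.5%), 2 higher (SAMHD1 and MAVS) and 1 lower (IRF3), and 4 did not overlap between the groups. Of all tested genes, 47.8% were called, 23.7% higher and 24.1% lower, and 53.1% did not overlap. With shDDX41 #2 against sh-Control, 2 of 8 were called (25%), SAMHD1 higher and MB21D1 lower, and 3 did not overlap. The background was 25.0% called, 11.6% higher and 13.4% lower, with 43.8% not overlapping. Between the hairpins, 5 of 8 were called (62.5%), with MB21D1, MAVS and SAMHD1 higher and IFI16 and IRF3 lower with shDDX41 #1, and 6 did not overlap. There the background was 48.8% called, 24.6% higher and 24.2% lower, with 57.7% not overlapping. The median size of the log2 difference, without its sign, was 0.20 for the members and 0.29 for all tested genes with shDDX41 #1, 0.14 and 0.18 with shDDX41 #2, and 0.29 for both between the hairpins. The members as a list were therefore called about as often as other genes against sh-Control, and no test of the list was made. The comparisons with sh-Control share their control libraries, so each is given on its own.

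The genes whose pattern over the 9 libraries was most like that of a called member were found by the root mean square difference of log2 CPM from the sh-Control mean, among 9833 genes. MAVS was nearest to UNC119 (0.0274) and COPS7B (0.049), against a median of 0.334 over all genes compared. MB21D1 was nearest to RPP30 (0.0402) and LSM14A (0.0421), with a median of 0.265. IRF3 was nearest to C19orf60 (0.0707) and ALG5 (0.0732), with a median of 0.342. IFI16 was nearest to GS1-251I9.4 and ZNRF1 (0.117 for each), with a median of 0.372. SAMHD1 was nearest to MYCL (0.108) and FLJ10038 (0.13), with a median of 0.843. These distances describe likeness in 9 libraries of 3 groups only. The nearest genes were picked for their small distance, so they lie under the median by construction.

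To place the members in their pathway, 92 further genes in 8 lists were examined, of which 82 were tested. With shDDX41 #1, 39 of 82 were called (47.6%), 18 higher and 21 lower, and under upper quartile scaling 43 were called, 25 higher and 18 lower. With shDDX41 #2, 28 were called (34.1%), 17 higher and 11 lower. Between the hairpins 34 were called (41.5%), 12 higher and 22 lower with shDDX41 #1, and 39 under upper quartile scaling, 19 higher and 20 lower. Of all tested genes in the main fit, 47.8% were called with shDDX41 #1 (23.7% higher, 24.1% lower) and 25.0% with shDDX41 #2 (11.6% and 13.4%). Between the hairpins 48.8% were called (24.6% and 24.2%). Under upper quartile scaling, 3849 of all tested genes were higher and 2453 lower with shDDX41 #1, and 3585 and 2710 between the hairpins. The count for shDDX41 #2 was 16 without sh-Control B or without shDDX41 #2 B and 17 without shDDX41 #2 D. Of all genes, 2299, 2054 and 2129 were called in these fits in turn, against 3174 in the main fit.

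**Figure D3:**
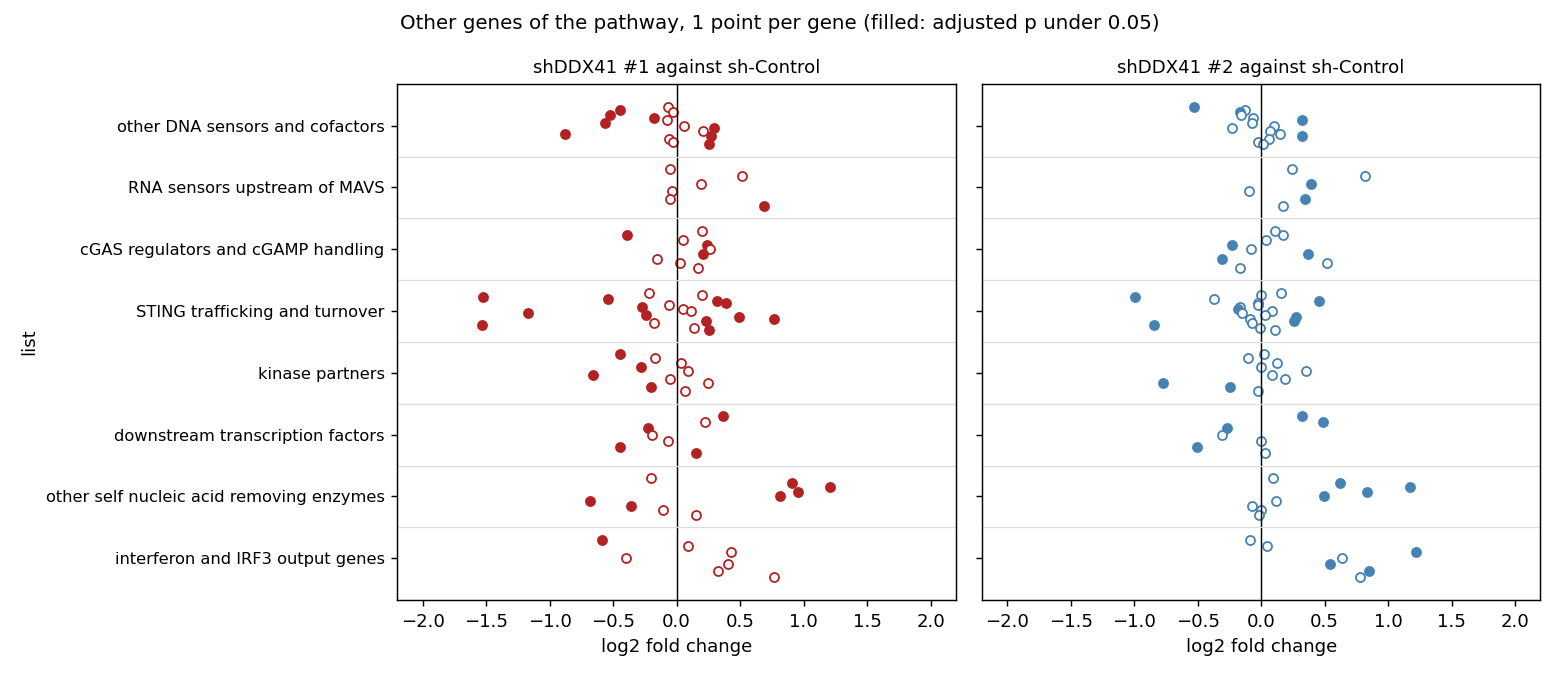
Log2 fold change (x axis) of the 82 tested genes in 8 lists (y axis) with each hairpin against sh-Control, 1 point per gene, filled at an adjusted p under 0.05. The list of enzymes that remove nucleic acids has 4 filled points on the right with both hairpins. In the list of STING trafficking, INSIG1 lies at −1.52 and −0.99 and USP18 at −1.53 and −0.845. Vertical offsets within a list only separate the points.

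Upstream of STING, 5 of 15 tested DNA sensors and cofactors fell and 3 rose with shDDX41 #1, and 2 fell and 2 rose with shDDX41 #2. Of all tested genes, 24.1% fell and 23.7% rose with shDDX41 #1, and 13.4% fell and 11.6% rose with shDDX41 #2. HMGB1, a chromatin protein that bends DNA, went from 1236 ± 36.9 to 861 ± 42 CPM with shDDX41 #1 (log2 fold change −0.52, adjusted p 1e-05), and it was at 1109 ± 40 CPM with shDDX41 #2 (adjusted p 0.0835). MRE11A, a nuclease of DNA break repair, fell by 0.56 on the log2 scale with shDDX41 #1 (adjusted p 2.52e-05), and the helicase DHX9 fell by 0.45 (adjusted p 5.41e-05). PRKDC went from 1644 ± 233 to 896 ± 201 CPM with shDDX41 #1 (log2 fold change −0.875, adjusted p 8.63e-05). It was at 1818 ± 92.5 CPM with shDDX41 #2 and was not called (adjusted p 0.455). RAD50, the partner of MRE11A, rose with both hairpins, by 0.27 (adjusted p 0.00235) and 0.32 (adjusted p 0.0018). With shDDX41 #2 the helicase DHX36 fell by 0.53 (adjusted p 8.39e-05) and LRRFIP1 rose by 0.32 (adjusted p 0.00348).

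The RNA sensors that signal through MAVS had 6 tested genes, of which ZNFX1 alone rose with shDDX41 #1 (log2 fold change 0.69, adjusted p 0.000363). With shDDX41 #2, IFIH1, which encodes MDA5, rose by 0.39 on the log2 scale (adjusted p 0.0146) and TRIM25, the ubiquitin ligase of RIG-I, by 0.34 (adjusted p 0.0121). Each of these 2 calls was lost without sh-Control B or shDDX41 #2 B, IFIH1 also without shDDX41 #2 A and TRIM25 without sh-Control D, with adjusted p from 0.0508 to 0.0676. Among regulators of cGAS and carriers of cGAMP, 3 of 9 were called with each hairpin, against 47.8% and 25.0% of all tested genes. LRRC8C, a subunit of the volume-regulated channel that passes cGAMP, rose by 0.21 with shDDX41 #1 (adjusted p 0.015, lost without sh-Control D or shDDX41 #1 A at 0.0656 and 0.0739) and by 0.37 with shDDX41 #2 (adjusted p 0.000788). SLC19A1, the folate carrier that imports cGAMP, fell by 0.31 with shDDX41 #2 (adjusted p 0.00501). The deglutamylase AGBL5 fell by 0.39 with shDDX41 #1 (adjusted p 0.00137). The acetyltransferase KAT5 had a log2 fold change of 0.24 with shDDX41 #1 (adjusted p 0.0105) and of −0.23 with shDDX41 #2 (adjusted p 0.0263). These were lost without sh-Control B for the first (adjusted p 0.0524), and without sh-Control A or any shDDX41 #2 library (0.0643 to 0.0998) or with upper quartile factors (adjusted p 0.0609) for the second.

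Around STING, genes of trafficking and turnover were called in 12 of 19 cases with shDDX41 #1, 6 in each direction, and in 6 of 19 with shDDX41 #2, 3 in each direction. The list shares were 63.2% and 31.6%, against 47.8% and 25.0% of all tested genes. INSIG1, an endoplasmic reticulum protein of sterol control that also acts on STING, was at 286 ± 43.3 CPM in the controls. It fell to 99.5 ± 1.8 CPM under shDDX41 #1 (log2 fold change −1.52, adjusted p 8.7e-09) and was at 143 ± 3.87 CPM under shDDX41 #2 (−0.99, adjusted p 1.92e-06). SURF4, a cargo receptor that returns STING from the Golgi, was at 392 ± 19 CPM in sh-Control and 174 ± 11.1 CPM with shDDX41 #1 (−1.17, adjusted p 6.72e-09). With shDDX41 #2 it was at 353 ± 10.9 CPM and was not called (adjusted p 0.108). TOLLIP rose by 0.49 on the log2 scale with shDDX41 #1 (adjusted p 0.000108) and by 0.28 with shDDX41 #2 (adjusted p 0.0175), the latter lost without sh-Control B or shDDX41 #2 A or D (0.0771 to 0.0811). NLRX1, an inhibitor of innate signaling, rose by 0.32 with shDDX41 #1 (adjusted p 0.0103, lost without shDDX41 #1 B at 0.0529) and by 0.46 with shDDX41 #2 (adjusted p 0.0023). USP18 was low, at 3.37 ± 0.913 CPM in sh-Control. It was at 1.16 ± 0.377 CPM with shDDX41 #1 (log2 fold change −1.53, adjusted p 0.000377). With shDDX41 #2 it was at 1.87 ± 0.181 CPM (−0.845, adjusted p 0.0241). Genes listed for the traffic and turnover of STING thus moved in both directions, beside a TMEM173 mRNA that was not called.

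Partners of TBK1 were lower in 4 of 10 cases with shDDX41 #1 and in 2 of 10 with shDDX41 #2, with none called higher in either edgeR comparison. TRAF3 alone was called lower with both hairpins. The share called was 40% and 20%, against 47.8% and 25.0% of all tested genes. Of all tested genes, 24.1% were called lower with shDDX41 #1 and 13.4% with shDDX41 #2. The adaptor AZI2 fell by 0.45 with shDDX41 #1 (adjusted p 9.01e-05), OPTN fell by 0.66 (adjusted p 0.00567), and IKBKE, the kinase most like TBK1, fell by 0.28 (adjusted p 0.0103). AZI2, OPTN and IKBKE were not called with shDDX41 #2, at log2 differences of 0.022, 0.089 and 0.002 (adjusted p 0.846, 0.725 and 0.987). With shDDX41 #2, the adaptor TBKBP1 fell by 0.77 (adjusted p 0.000364) and TRAF3 by 0.25 (adjusted p 0.025, lost without sh-Control B or shDDX41 #2 A or B at 0.0742 to 0.122). TBKBP1 was not called with shDDX41 #1 (log2 difference 0.25, adjusted p 0.0883), where it was higher than with shDDX41 #2 by 1.02 (adjusted p 7.62e-06). TRAF3 also fell by 0.20 with shDDX41 #1 (adjusted p 0.039), a call lost without sh-Control A or B, shDDX41 #1 A or D or shDDX41 #2 A (0.0526 to 0.159) and under 4 further settings, the DESeq2 Wald test among them (adjusted p up to 0.178). Beside IRF3, transcription factors of the pathway were called in 4 of 7 cases with each hairpin, 2 higher and 2 lower. IRF5 rose by 0.36 (adjusted p 0.0028) and 0.32 (adjusted p 0.013), and IRF7 rose by 0.49 with shDDX41 #2 (adjusted p 0.00674). The NF-kB subunit RELB fell by 0.44 (adjusted p 0.00899) and 0.51 (adjusted p 0.00865), and NFKB1 fell by 0.23 (adjusted p 0.0241) and 0.27 (adjusted p 0.0167). Single libraries ended several of these calls. NFKB1 with shDDX41 #1 was lost without sh-Control A or B or shDDX41 #1 A or D (0.0693 to 0.0898) and with upper quartile factors (adjusted p 0.116). NFKB1 with shDDX41 #2 was lost without sh-Control A or B or shDDX41 #2 B or D (0.0525 to 0.0906). The calls were lost for RELB without sh-Control A for shDDX41 #1 (0.0548) and without shDDX41 #2 B for shDDX41 #2 (0.051), and for IRF5 with shDDX41 #2 without sh-Control D or shDDX41 #2 B (0.0552 and 0.0845).

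Genes listed as other enzymes that remove the cell's own nucleic acids were read beside SAMHD1, which itself acts on nucleotides. Of 9 other tested genes, 4 rose and 2 fell with shDDX41 #1, and 4 rose and 0 fell with shDDX41 #2. Of all tested genes, 23.7% rose and 24.1% fell with shDDX41 #1, and 11.6% rose and 13.4% fell with shDDX41 #2. DNASE2, the DNase of the lysosome, was at 6.5, 7 and 9 CPM in sh-Control, at 15.7, 13.4 and 23.1 CPM with shDDX41 #1 and at 15.8, 18.3 and 16.6 CPM with shDDX41 #2 (log2 fold changes 1.21 and 1.17, adjusted p 6.9e-05 and 0.000288). The lysosomal exonucleases PLD3 (53.2 ± 7.07 CPM in sh-Control, 103 ± 12.3 and 94.7 ± 4.11 CPM with the hairpins) and PLD4 (100 ± 11.1, 177 ± 19.1 and 142 ± 4.89 CPM) rose too. Their log2 fold changes were 0.96 and 0.83 for PLD3 (adjusted p 1.94e-06 and 3.25e-05) and 0.81 and 0.50 for PLD4 (adjusted p 3.27e-06 and 0.000914). RNASEH2A, the catalytic subunit of RNase H2, fell with shDDX41 #1 (49.9 ± 5.2 against 80.2 ± 6.52 CPM, log2 fold change −0.68, adjusted p 1.09e-05) and was at 87.2 ± 3.34 CPM with shDDX41 #2. RNASEH2B, another subunit of RNase H2, was the other gene that fell with shDDX41 #1, at −0.36 (adjusted p 0.000417). DNASE1, a secreted DNase, was the other gene that rose, by 0.91 with shDDX41 #1 (adjusted p 0.00279) and by 0.62 with shDDX41 #2 (adjusted p 0.0496). The latter call was lost without any 1 of 8 libraries, all but shDDX41 #1 D (0.0524 to 0.194), and with limma voom, the DESeq2 Wald test, library size only, no filter or the replicate block (adjusted p up to 0.0731).

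**Figure D4:**
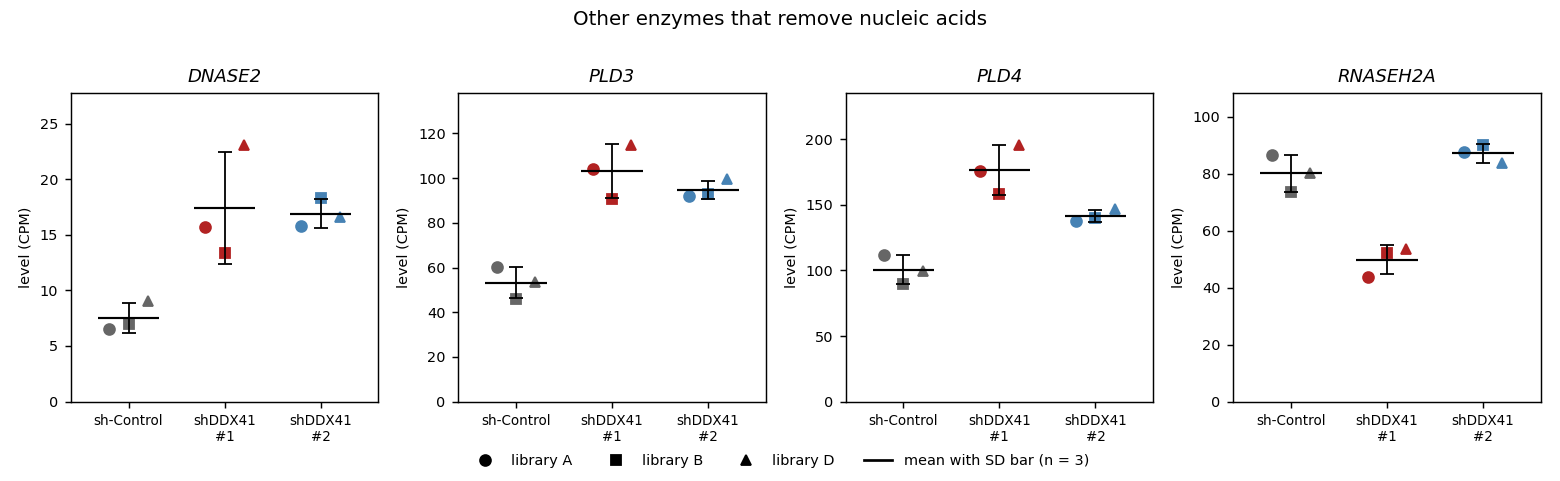
Level in CPM (y axis, linear from 0) of DNASE2, PLD3, PLD4 and RNASEH2A in the 3 groups (x axis). Points are libraries, the line is the mean and the bar the SD of 3 libraries. DNASE2, PLD3 and PLD4 are higher in all 6 knockdown libraries than in the 3 controls, and RNASEH2A is lower in the 3 shDDX41 #1 libraries than in the other 6.

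At the output of the pathway, IFNB1, the interferon gene that IRF3 turns on first, had 0 counts in all 9 libraries, as had IFNA1. A count of 0 allows up to 3 counts, or 0.149 to 0.182 CPM in these libraries, for counting error only. CXCL10, an interferon-induced chemokine, had 0 to 4 counts per library and was not tested. Of 7 tested output genes, 1 fell with shDDX41 #1 and 3 rose with shDDX41 #2. Of all tested genes, 24.1% fell with shDDX41 #1 and 11.6% rose with shDDX41 #2. CCL5, a chemokine that IRF3 can induce, went from 84 ± 7.11 to 56 ± 2.44 CPM with shDDX41 #1 (log2 fold change −0.59, adjusted p 1.72e-05) and was at 79 ± 4.05 CPM with shDDX41 #2 (adjusted p 0.409). With shDDX41 #2, IFIT2 was at 1.51, 2.13 and 3.21 CPM against 0.944, 0.573 and 1.37 CPM in sh-Control (log2 fold change 1.22, adjusted p 0.0186), on 10 to 53 counts. ISG15 rose by 0.54 (adjusted p 0.0244) and OASL by 0.85 (adjusted p 0.0439). Each of these 3 calls was lost when single libraries were left out, sh-Control B and shDDX41 #2 D in every case, IFIT2 and OASL also without sh-Control A, ISG15 without shDDX41 #2 B, and OASL without shDDX41 #2 A or shDDX41 #1 A or B (adjusted p 0.0521 to 0.154). OASL was also lost in the DESeq2 Wald test (adjusted p 0.0633). With shDDX41 #1 none of the 3 was called in edgeR. Their log2 differences from sh-Control were 0.43 for IFIT2 (adjusted p 0.376), 0.41 for ISG15 (0.0533) and 0.325 for OASL (0.411). The direct comparison of the hairpins called none of them either (adjusted p 0.0642, 0.522 and 0.141), so a difference between the hairpins was not shown. At this depth no interferon beta mRNA was detectable in any group, and the 3 genes of this output list that rose with shDDX41 #2 were at low levels.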

How the data were processed

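The authors sequenced RNA of MOLM13 cells with sh-Control, shDDX41 #1 or shDDX41 #2, with 3 libraries per group and paired reads of 75 bases. Per the labels the kit was stranded, whereas the methods name an unstranded kit of the same family. The submitters' processing notes list FastQC 0.11.7, HISAT2 2.0.5, featureCounts 1.5.2 and the builds mm10 and hg38, with no role given. The deposited values were raw gene counts, all whole numbers, in 9 columns that each carried the label of 1 library, at 16385238 to 20510032 counts per library. All 30017 rows named a gene.

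The analysis used edgeR 4.0.16 in R 4.3.3. filterByExpr (minimum count 10) kept 12712 genes (42.3%), and TMM factors (0.9626 to 1.022) scaled the libraries. All 9 libraries entered 1 quasi-likelihood fit with a coefficient for each group, followed by 3 two-sided contrasts and Benjamini-Hochberg adjustment over all tested genes. An adjusted p under 0.05 made a call. The biological coefficient of variation was 0.0768. The SE is the log2 fold change divided by the square root of F. An exact permutation test of 3 against 3 libraries has 0.1 as its smallest p, so calls were taken from the model. CPM used TMM-scaled totals, and levels between genes were divided by merged exon length from GENCODE v29 (GRCh38), from which positions and overlaps were also taken. Promoters came from a RefSeq table (GRCh38.p14). Scripts were tested on simulated data.

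The members and lists were chosen with earlier results of these data known. All members and DDX41 were named. Of each other list, up to 3 called genes with the smallest adjusted p per hairpin were named, with IFNB1, CCL5, CXCL10, IFIH1 and IKBKE named in any case. ATRIP, BCL2L12, TLDC2, DDX43, IFNA1, DNASE1, PRKDC, USP18 and RNASEH2B, NLRX1 and TRAF3 with shDDX41 #1 and NFKB1 with shDDX41 #2 were named after their values were seen. For likeness, genes with a mean of at least 5 CPM were compared and the 2 nearest named. Alternatives were DESeq2 1.42.0 size factors, upper quartile factors, library size only, no filter, a minimum of 10 counts in each library, limma 3.58.1 voom, the DESeq2 Wald test, fits of only 6 libraries, a block for the replicate letter, leaving out single libraries, and an adjusted p under 0.01.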

Additional observations from a re-analysis of the deposited data

Results flagged for a closer look

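MB21D1 and IFI16 differed between the hairpins in the direct comparison, and their fitted differences from sh-Control had opposite signs, of which the one of MB21D1 with shDDX41 #2 was called (adjusted p 0.0386, under 9 of 19 alternatives) and the other 3 were not. For MB21D1 the log2 difference from sh-Control was 0.07 with shDDX41 #1 and −0.21 with shDDX41 #2, and the direct comparison gave 0.28 (adjusted p 0.00413 in edgeR, called under all 19 alternatives, 0.24 to 0.32). For IFI16 the values were −0.20 and 0.31, and the direct comparison gave −0.51 (adjusted p 0.0397, called under 12 of 19 alternatives, −0.67 to −0.37). With 3 libraries per group, no test for a single outlying library was made.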

How the results depend on the processing

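Over 24 results of the members and 19 alternatives (456 values), 429 kept their direction and their side of the threshold, 20 lost the call, 1 gained it and 6 changed sign, all of these 6 in values that were not called. SAMHD1 was called in all 3 comparisons under every alternative, with a log2 fold change of 1.16 to 1.29, 0.63 to 0.74 and 0.47 to 0.58. MAVS with shDDX41 #1 stayed called (0.40 to 0.50), as did IRF3 (−0.52 to −0.34). The calls lost were those of MB21D1 with shDDX41 #2 (called under 9 of 19 alternatives) and of IFI16 and IRF3 between the hairpins (12 and 16 of 19). TMEM173 with shDDX41 #2 was −0.02 with library size only, and −0.02 to 0.05 when single libraries were left out. TREX1 between the hairpins was −0.13 to 0.03 when single libraries were left out. The causes were not tested.

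With shDDX41 #2 against sh-Control, the number of members called was 1 instead of 2 with upper quartile factors, with no filter, with the DESeq2 Wald test and at an adjusted p under 0.01, and 1 to 2 when single libraries were left out. At 0.01, 13 of the other pathway genes and 1670 of all genes were called instead of 28 and 3174. Without single libraries these were 16 to 35 and 2054 to 4248. Between the hairpins, 3 members instead of 5 were called at 0.01, and 3 to 5 without single libraries. Upper quartile factors turned the split of all calls with shDDX41 #1 from 3010 higher and 3068 lower to 3849 and 2453, with a median of all genes of 0.087 instead of 0.012.  Under them 4 members were called with shDDX41 #1 (3 higher) and 4 between the hairpins (3 higher). Of 53 results of other named genes, 18 lost the call when 1 library was left out. PRKDC and USP18 were not among these results.

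The letters A, B and D are not stated to mark a shared batch. The same-letter correlation of deviations was 0.0725, 0.158 and 0.243 between shDDX41 #1 and sh-Control. There every shDDX41 #1 library correlated best with the sh-Control library of its own letter, and the reverse was not examined. In the other pairs the correlation was −0.0574 to 0.0225, and not every library examined was closest to its own letter. With the replicate block the members called were 3, 2 and 5, as without it, and all genes called were 6351, 3570 and 6503. Of the named genes, PRKDC and USP18 not included, the block ended 1 call, DNASE1 with shDDX41 #2 (adjusted p 0.0588). Depth limits IFI16 most, and the output genes with a few counts per library cannot be ranked.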
